A study of Mus musculus with 12 samples.

Results

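Steroid receptors are transcription factors that wait in an inactive complex with heat-shock chaperones until a hormone binds them. The glucocorticoid receptor, encoded by Nr3c1, then enters the nucleus and raises a set of target genes found in many tissues, while the estrogen and progesterone receptors, encoded by Esr1 and Pgr, direct growth and differentiation of mammary epithelium. The 9 genes described here are these 3 receptors and 6 genes known to be induced by glucocorticoids, namely Fkbp5, Tsc22d3, Sgk1, Per1, Klf9 and Zbtb16. They were taken by name from the 52636 genes of the count tables, and Fkbp5 was chosen by its measured counts, which differed between vectors in these same libraries. Its vector differences are therefore given as a description with no test.

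RNA was measured by stranded total RNA sequencing in 12 bulk tumors of 2153L, a transplantable mouse mammary tumor labelled triple-negative, grown in Balbc females after transplantation into the mammary fat pad. The tumors carried P53ERTAM, a tamoxifen-inducible fusion of p53 to an estrogen receptor part, or an empty vector (EV). For 8 days mice received vehicle or a 2-drug regimen, called combo, in which docetaxel, a taxane, was given weekly at 20 mg/kg and ORIN1001, which blocks the RNase of IRE1, daily at 150 mg/kg. The 4 groups were P53ERTAM combo, P53ERTAM vehicle, EV combo and EV vehicle, with 3 tumors each. All came from 1 tumor line, and which animals were given tamoxifen, and when, is not stated in the labels. The labels name replicates without saying whether they came from separate animals, so p-values measure the spread between these samples. In bulk tumors, fewer cells of a type and less RNA per cell cannot be told apart.

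The libraries held 13484873 to 24424964 counted reads, and 17970 genes passed the filter on low counts, among them all 9 genes described here. The 3 EV combo libraries stood apart: 80.9% to 81.6% of their counts fell in protein-coding genes, against 86.6% to 95.8% in the other 9 libraries, and the noncoding gene Gm26917 alone held 10.7% to 11.1% of their counts, against 0.133% to 1.10%. Each result of the 9 genes that involves EV combo tumors was therefore also computed from protein-coding genes alone, and is qualified where that changed a call. Summed markers of other cell types also moved with the groups. Macrophage markers summed to 1554 to 2236 CPM (counts scaled to a common library size) in P53ERTAM combo tumors, 796 to 886 CPM in P53ERTAM vehicle tumors, 514 to 716 CPM in EV combo tumors and 621 to 928 CPM in EV vehicle tumors. Fibroblast markers summed to 1377 to 2064, 1492 to 3793 and 1021 to 1989 CPM in P53ERTAM combo, P53ERTAM vehicle and EV combo tumors, against 544 to 575 CPM in EV vehicle tumors. Epithelial markers summed to 2262 to 2784, 1834 to 2308 and 2103 to 2567 CPM in those groups, against 3490 to 4326 CPM in EV vehicle tumors, and all 10 had counts in every group. Basal epithelial markers summed to 89.0 to 98.5 CPM in P53ERTAM combo tumors and 122 to 190 CPM in P53ERTAM vehicle tumors, against 553 to 767 CPM in EV combo tumors and 312 to 598 CPM in EV vehicle tumors, with no overlap between vectors. Of the 8 tested, 5 were lower in P53ERTAM under either treatment, against 22.0% of all genes under combo and 19.8% under vehicle. The part of cell makeup in the results that follow was not tested.

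Promoter sequence was read for the glucocorticoid targets because the receptor binds DNA at the palindromic glucocorticoid response element, searched here as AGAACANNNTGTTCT on both strands, while clock transcription factors bind the E-box CACGTG. RefSeq start sites of build GRCm38.p6 gave 16 windows for 7 of the 9 genes, each of 300 bases from 250 before to 50 after the start. Sgk1 had 6 windows, Tsc22d3 3, Esr1 and Per1 2 each, and Fkbp5, Klf9 and Pgr 1 each. The full response element was present in 1 of these 16 windows, a Sgk1 window, and in 3 of all 32851 windows (0.00913%). The E-box was present in 3 of the 16 windows, of Sgk1, Per1 and Fkbp5, and in 7.15% of all windows. The hexamer AGAACA, a part of the full glucocorticoid response element, was found in 4 of the 16 windows, of Sgk1 and Tsc22d3, and in 6233 of all 32851 windows. Neither the estrogen response element GGTCANNNTGACC, present in 0.07% of all windows, nor the cyclic AMP response element TGACGTCA, present in 1.79%, was found in the 16 windows. The 3 windows that hold an E-box are printed 5′ to 3′ on the strand of the gene, with the full response element and the E-box in capitals. They lie at chr10:21993640-21993939 on the plus strand for Sgk1, chr11:69098699-69098998 on the plus strand for Per1 and chr17:28486100-28486399 on the minus strand for Fkbp5.
Sgk1: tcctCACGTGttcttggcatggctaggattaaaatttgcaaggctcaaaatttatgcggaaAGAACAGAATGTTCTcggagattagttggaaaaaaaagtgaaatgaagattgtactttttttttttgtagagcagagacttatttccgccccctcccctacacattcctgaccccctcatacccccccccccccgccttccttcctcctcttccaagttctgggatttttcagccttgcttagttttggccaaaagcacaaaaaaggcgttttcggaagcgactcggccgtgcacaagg
Per1: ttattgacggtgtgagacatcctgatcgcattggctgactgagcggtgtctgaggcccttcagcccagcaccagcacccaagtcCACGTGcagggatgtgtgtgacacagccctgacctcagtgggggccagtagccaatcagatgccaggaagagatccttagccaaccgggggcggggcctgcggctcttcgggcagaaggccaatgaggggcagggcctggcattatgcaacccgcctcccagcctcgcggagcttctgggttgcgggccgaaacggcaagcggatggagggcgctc
Fkbp5: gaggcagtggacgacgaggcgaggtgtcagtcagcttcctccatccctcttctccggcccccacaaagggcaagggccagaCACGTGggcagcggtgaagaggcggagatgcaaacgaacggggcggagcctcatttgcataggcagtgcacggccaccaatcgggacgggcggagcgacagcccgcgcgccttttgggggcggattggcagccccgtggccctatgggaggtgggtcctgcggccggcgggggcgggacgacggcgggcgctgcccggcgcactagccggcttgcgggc
In the Sgk1 window the E-box began at position -246 and the response element at position -189 from the start site, as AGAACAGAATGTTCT. The E-box began at position -166 in the Per1 window and at position -169 in the Fkbp5 window. A match describes these letters and does not show binding.

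Levels per length, in TPM (counts scaled by summed exon length and library size), placed the glucocorticoid receptor among the higher of the 9 genes in every group. Nr3c1 averaged 91.0, 80.6, 71.9 and 86.5 TPM in P53ERTAM combo, P53ERTAM vehicle, EV combo and EV vehicle tumors, in which Esr1 averaged 9.28, 6.78, 2.69 and 2.09 TPM and Pgr 0.299, 0.055, 0.084 and 0.110 TPM. In P53ERTAM combo tumors the order was Fkbp5 (156 TPM), Sgk1 (137), Nr3c1 (91.0), Klf9 (78.5), Tsc22d3 (69.5), Per1 (57.6), Esr1, Zbtb16 (0.876) and Pgr. In EV vehicle tumors Nr3c1 led, followed by Klf9 (52.6 TPM), Fkbp5 (46.4), Sgk1 (38.1), Tsc22d3 (20.98), Per1 (19.8), Esr1, Zbtb16 (0.224) and Pgr. Among neighbours in these orders, the libraries of Fkbp5 and Sgk1 and of Klf9 and Tsc22d3 overlapped in P53ERTAM combo tumors, and those of Klf9 and Fkbp5, of Sgk1 and Tsc22d3, of Tsc22d3 and Per1 and of Zbtb16 and Pgr overlapped in EV vehicle tumors. The EV tumors thus held low Esr1 mRNA, at 1.21 to 3.14 TPM, and Pgr mRNA near the detection limit. These mRNA levels do not give receptor protein, on which a triple-negative label rests.

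**Figure D1:**
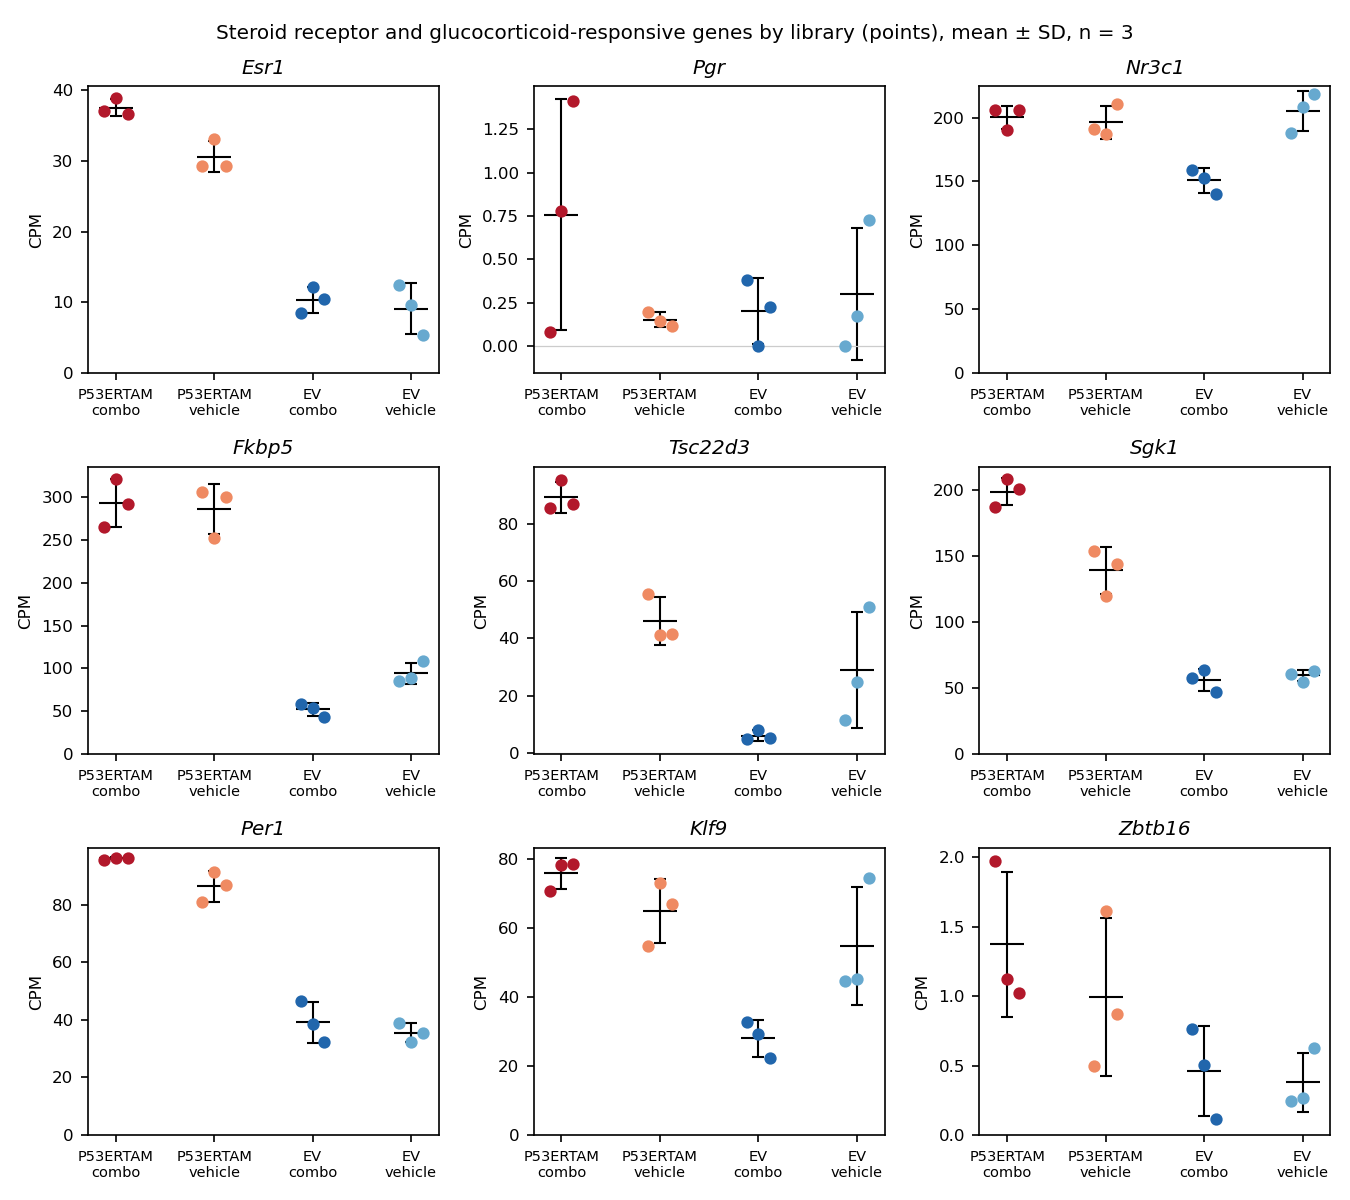
CPM (counts scaled to a common library size) of the 9 genes in each library; points are tumors, horizontal bars the mean of 3 and whiskers 1 SD, with the groups from left to right P53ERTAM combo, P53ERTAM vehicle, EV combo and EV vehicle. Fkbp5, Sgk1, Per1 and Esr1 were higher in all 6 P53ERTAM tumors than in all 6 EV tumors, and Pgr and Zbtb16 stayed under 2 CPM.

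Among the receptors, Esr1 was higher with the p53 fusion under either treatment. Esr1 (ENSMUSG00000019768.16, chromosome 10, 4611593 to 5005614, plus strand) had 37.0, 38.9 and 36.7 CPM in P53ERTAM combo tumors, 29.4, 33.1 and 29.3 CPM in P53ERTAM vehicle tumors, 8.44, 12.1 and 10.5 CPM in EV combo tumors and 12.4, 9.56 and 5.31 CPM in EV vehicle tumors. All P53ERTAM values lay above all EV values. The log2 difference, P53ERTAM minus EV, was 1.86 ± 0.237 (SE, n = 3 each) under combo and 1.74 ± 0.237 under vehicle, with adjusted p of 6.38e-05 and 0.000185 by edgeR's quasi-likelihood test with Benjamini-Hochberg adjustment over all genes, the test behind every adjusted p below. Because the fusion itself holds an estrogen receptor part and the tables give 1 count per gene, reads of that part and of the tumor's own Esr1 cannot be told apart. Combo minus vehicle was 0.30 ± 0.225 in P53ERTAM tumors (adjusted p = 0.449), where the groups did not overlap, and 0.18 ± 0.238 in EV tumors (adjusted p = 0.572).

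Pgr, itself an estrogen-induced gene in the mammary gland, was too sparse to compare. It had 2, 18 and 36 reads in P53ERTAM combo tumors, 4, 2 and 2 in P53ERTAM vehicle tumors, 6, 0 and 4 in EV combo tumors and 0, 4 and 14 in EV vehicle tumors. Both libraries with 0 reads allow up to 3 reads, which is 0.208 CPM in EV combo replicate 2 and 0.145 CPM in EV vehicle replicate 1. In CPM, replicates 2 and 3 of P53ERTAM combo were the highest of the 12 libraries while replicate 1 was below most others, so the groups overlapped, and no Pgr comparison passed the test. Between 66.3% and 71.7% of all counts from 1 to 20 were even, as were all 12 Pgr counts, so such counts carry less information than their size shows.

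Nr3c1, the glucocorticoid receptor on chromosome 18, was lower with the combination in EV tumors. It had 205.6, 189.9 and 205.5 CPM in P53ERTAM combo tumors, 190.8, 186.7 and 210.7 CPM in P53ERTAM vehicle tumors, 159, 152.8 and 140.2 CPM in EV combo tumors and 187.9, 208.2 and 218.7 CPM in EV vehicle tumors. The 3 EV combo tumors lay below the other 9, which overlapped one another. Combo minus vehicle was -0.44 ± 0.0946 in EV tumors (adjusted p = 0.00280) and 0.031 in P53ERTAM tumors (adjusted p = 0.877). P53ERTAM minus EV was 0.41 ± 0.0945 under combo (adjusted p = 0.00371) and -0.064 under vehicle (adjusted p = 0.624). The difference between the combo effects, 0.47 ± 0.134, passed at adjusted p = 0.0148 but not among protein-coding genes alone, where it was 0.295 at adjusted p = 0.0867, nor without P53ERTAM combo replicate 1 (adjusted p = 0.0522) or replicate 3 (adjusted p = 0.0527).

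Of the glucocorticoid targets, Fkbp5 had the highest CPM in P53ERTAM tumors. It encodes FKBP51, a co-chaperone that binds the HSP90 complex of the glucocorticoid receptor and lowers the receptor's affinity for hormone. Fkbp5 (chromosome 17, 28399095 to 28517524, minus strand) had 265.4, 321.5 and 292.4 CPM in P53ERTAM combo tumors, 305.7, 252.9 and 300.3 CPM in P53ERTAM vehicle tumors, 59.0, 53.3 and 43.8 CPM in EV combo tumors and 85.4, 88.8 and 108.6 CPM in EV vehicle tumors. The P53ERTAM tumors lay above the EV tumors without overlap, by 5.63 times under combo and 3.04 times under vehicle as ratios of means, the difference for which the gene was chosen. Within EV tumors combo minus vehicle was -0.86 ± 0.136 (adjusted p = 0.000544), with the 3 combo tumors below the 3 vehicle tumors. Within P53ERTAM tumors it was 0.034 (adjusted p = 0.908), with overlapping groups. The choice compared vectors and not treatments, but the same values made up its vector differences. These adjusted p-values are therefore not independent of the choice.

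Tsc22d3, which encodes GILZ, a leucine-zipper protein that mediates anti-inflammatory effects of glucocorticoids, was lowest in EV combo and highest in P53ERTAM combo tumors. Tsc22d3 (chromosome X, 140539528 to 140600659, minus strand) had 85.6, 95.4 and 87.0 CPM in P53ERTAM combo tumors, 55.7, 41.2 and 41.4 CPM in P53ERTAM vehicle tumors, 4.82, 8.16 and 5.07 CPM in EV combo tumors and 11.4, 24.6 and 51.2 CPM in EV vehicle tumors. Neither of these groups overlapped any other, while the EV vehicle tumors spread widely and overlapped the P53ERTAM vehicle tumors. Combo minus vehicle was -2.28 ± 0.432 in EV tumors (adjusted p = 0.00188) and 0.95 ± 0.387 in P53ERTAM tumors (adjusted p = 0.155). P53ERTAM minus EV was 3.90 ± 0.448 under combo (adjusted p = 5.38e-05) and 0.67 under vehicle (adjusted p = 0.198). The combo effects differed by 3.23 ± 0.580 between vectors (adjusted p = 0.00182). The calls that were missed depended on the libraries and the method of the fit. By limma-voom the vector difference under vehicle was 1.26 (adjusted p = 0.00925) and the combo effect in P53ERTAM tumors 0.822 (adjusted p = 0.0212). That combo effect also passed when only the groups compared were fitted (0.947, adjusted p = 0.00208). Without EV vehicle replicate 3 the vector difference under vehicle was 1.37 (adjusted p = 0.00467), and the combo effect in P53ERTAM tumors, 0.958, passed without EV vehicle replicate 1 (adjusted p = 0.0369) or replicate 3 (adjusted p = 0.0327). Tsc22d3 is also expressed in lymphocytes, and T-cell markers summed to 40.6 to 48.6 CPM in P53ERTAM combo tumors, 21.9 to 24.7 CPM in P53ERTAM vehicle tumors, 9.77 to 17.2 CPM in EV combo tumors and 13.5 to 74.9 CPM in EV vehicle tumors. In EV vehicle replicates 1, 2 and 3 these sums were 22.9, 74.9 and 13.5 CPM. Markers of B and plasma cells summed to 3.16, 199 and 1.77 CPM in the same replicates. They summed to 6.41 to 11.4 CPM in P53ERTAM combo, 0.734 to 2.875 CPM in P53ERTAM vehicle and 1.14 to 1.52 CPM in EV combo tumors. The part of T, B and plasma cells in the Tsc22d3 differences was not tested.

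Sgk1, a kinase that carries glucocorticoid and mineralocorticoid effects on ion transport and survival, was higher in P53ERTAM tumors under both treatments. Sgk1 (chromosome 10, 21882184 to 21999903, plus strand), with the full response element in 1 of its 6 promoter windows, had 187.2, 207.8 and 200.8 CPM in P53ERTAM combo tumors, 153.7, 119.5 and 143.6 CPM in P53ERTAM vehicle tumors, 57.9, 63.3 and 47.1 CPM in EV combo tumors and 60.9, 54.7 and 63.1 CPM in EV vehicle tumors. The P53ERTAM combo tumors lay above the P53ERTAM vehicle tumors, and these above all EV tumors, whose 2 groups overlapped. P53ERTAM minus EV was 1.83 ± 0.129 under combo (adjusted p = 1.25e-06) and 1.22 ± 0.127 under vehicle (adjusted p = 4.01e-05). Combo minus vehicle was 0.51 ± 0.124 in P53ERTAM tumors (adjusted p = 0.0317) and -0.088 in EV tumors (adjusted p = 0.610). The combo call in P53ERTAM tumors was lost, at adjusted p between 0.0672 and 0.126, without P53ERTAM vehicle replicate 1 or 2 or any of the P53ERTAM combo replicates. Macrophage markers rose in the same comparison, 9 of 12 against 3.3% of all genes, and their part in the Sgk1 difference was not tested. The combo effects differed by 0.60 ± 0.177 between vectors (adjusted p = 0.0184), but not past the threshold among protein-coding genes alone (0.424, adjusted p = 0.0735) or without P53ERTAM combo replicate 2 (adjusted p = 0.0523).

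Per1, a repressor in the circadian clock that glucocorticoids induce directly, differed between vectors under both treatments and passed no treatment comparison. Per1 (chromosome 11, 69095217 to 69109960, plus strand) had 95.6, 96.3 and 96.3 CPM in P53ERTAM combo tumors, 80.9, 91.4 and 86.7 CPM in P53ERTAM vehicle tumors, 46.5, 38.5 and 32.3 CPM in EV combo tumors and 38.9, 32.3 and 35.4 CPM in EV vehicle tumors. Every P53ERTAM value was above every EV value. P53ERTAM minus EV was 1.30 ± 0.129 under combo (adjusted p = 1.15e-05) and 1.28 ± 0.128 under vehicle (adjusted p = 3.64e-05). Combo minus vehicle was 0.15 in P53ERTAM tumors (adjusted p = 0.479) and 0.14 in EV tumors (adjusted p = 0.416).

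Klf9, a Krüppel-like transcription factor induced by glucocorticoids and thyroid hormone, was lowest in EV combo tumors. Klf9 (chromosome 19, 23141226 to 23166911, plus strand) had 70.7, 78.3 and 78.5 CPM in P53ERTAM combo tumors, 54.8, 73.1 and 67.03 CPM in P53ERTAM vehicle tumors, 32.7, 29.3 and 22.2 CPM in EV combo tumors and 44.5, 45.3 and 74.6 CPM in EV vehicle tumors. The EV combo tumors lay below the other 9, and replicate 3 of EV vehicle lay among the P53ERTAM tumors, as it did for Tsc22d3. Combo minus vehicle was -0.97 ± 0.200 in EV tumors (adjusted p = 0.00242) and 0.22 in P53ERTAM tumors (adjusted p = 0.514). P53ERTAM minus EV was 1.44 ± 0.201 under combo (adjusted p = 0.00013) and 0.24 under vehicle (adjusted p = 0.348), and the vehicle value was 0.555 (adjusted p = 0.0205) without EV vehicle replicate 3. The combo effects differed by 1.19 ± 0.279 between vectors (adjusted p = 0.00593).

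Zbtb16, which encodes the transcriptional repressor PLZF, was near the detection limit. It had 1.97, 1.13 and 1.02 CPM in P53ERTAM combo tumors, 0.496, 1.62 and 0.874 CPM in P53ERTAM vehicle tumors, 0.762, 0.506 and 0.114 CPM in EV combo tumors and 0.247, 0.263 and 0.625 CPM in EV vehicle tumors. The P53ERTAM combo tumors lay above all EV combo tumors, and the difference of 1.58 missed the threshold (adjusted p = 0.0687), as did every other Zbtb16 comparison.

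Set against all genes, the receptors and targets moved in these comparisons as follows. With combo in EV tumors 4 of the 9 genes fell (Fkbp5, Tsc22d3, Klf9 and Nr3c1) and 0 rose, where 21.1% of all genes tested fell and 18.8% rose, and the median log2 change was -0.44 for the 9 genes and -0.067 for all genes. Fkbp5 is counted among the 9 although the values compared took part in its choice. With combo in P53ERTAM tumors 1 of 9 (Sgk1) rose and 0 fell, against 3.3% and 2.98% of all genes and 4.11% and 2.23% of protein-coding genes. At an unadjusted p under 0.05 Tsc22d3 was also higher and again 0 were lower. Fkbp5 aside, 6 of 8 were higher in P53ERTAM than EV tumors under combo (22.1% of all genes) and 0 lower (22.0% of all genes). Under vehicle 3 of 8, namely Esr1, Sgk1 and Per1, were higher (17.9% of all genes) and 0 lower (19.8% of all genes). Of protein-coding genes 26.6% were higher and 19.5% lower under combo, and 15.7% and 24.5% under vehicle. Both counts include Esr1, whose reads may come from the receptor part of the fusion. The combo effect was more positive in P53ERTAM than in EV tumors for 4 of 8 (Tsc22d3, Klf9, Nr3c1 and Sgk1), where 18.8% of all genes passed in that direction and 17.2% in the other. Of protein-coding genes 23.0% and 11.7% passed in these directions. These comparisons share libraries, so a low value in EV combo tumors enters the combo effect in EV, the vector difference under combo and the difference between combo effects alike.

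**Figure D2:**
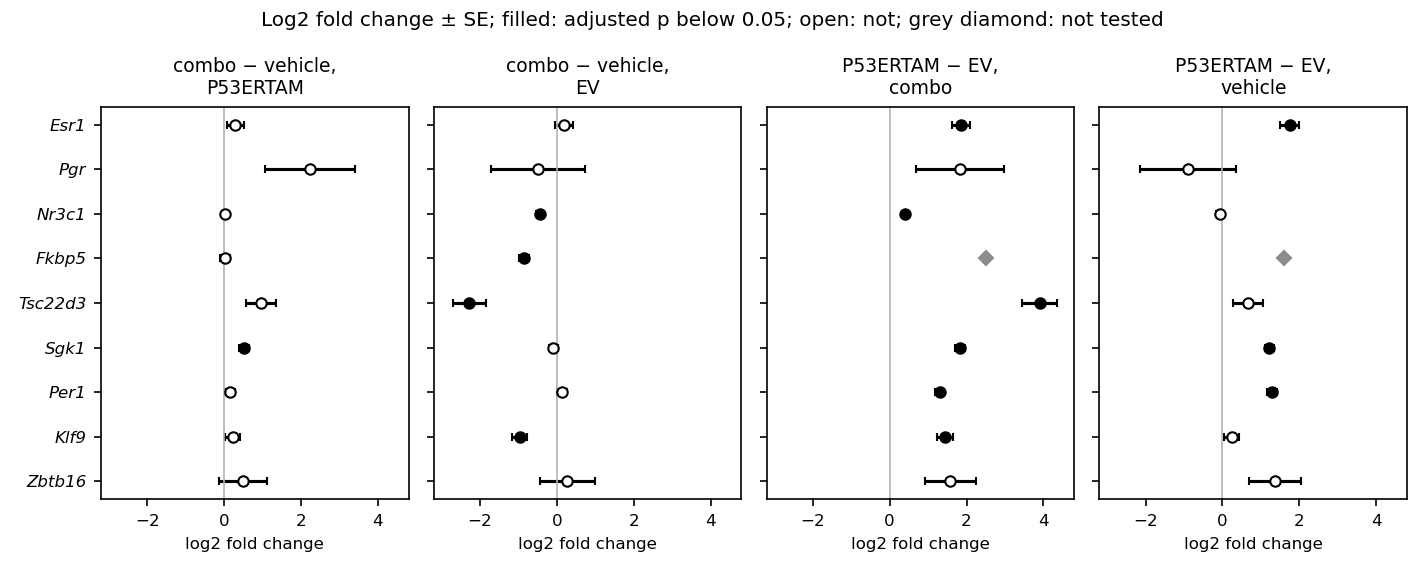
Log2 fold change ± SE of each of the 9 genes, from left to right for combo minus vehicle in P53ERTAM tumors and in EV tumors and for P53ERTAM minus EV under combo and under vehicle; filled points passed the adjusted threshold and grey diamonds mark Fkbp5, which was not tested between vectors. In EV tumors Tsc22d3 fell by 2.28 with combo, and Fkbp5, whose values compared here also took part in its choice, by 0.86. Sgk1 alone passed in P53ERTAM tumors, at 0.51.

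For the 7 genes called in a comparison or chosen by their counts, the genes most like them over the 12 libraries were named by the root mean square difference of gene-centred log2 CPM among 13904 protein-coding genes, as a description. They were Eva1b (0.24) and Cd300lf (0.272) for Esr1, and Eif5 (0.056), Tnfrsf1a (0.06) and Dcaf10 (0.065) for Nr3c1. For Fkbp5 they were Fstl3 (0.262), Pim3 (0.266) and Pabpc1l (0.318), and for Tsc22d3 Cideb (0.455), Mt2 (0.619) and Dcpp1 (0.62). Tsc22d3 had the most distant neighbours of these 7 genes, and Mt2, a metallothionein, is itself induced by glucocorticoids. For Sgk1 they were Suox (0.147), Mettl7a1 (0.172) and Jade2 (0.189), for Per1 Ak1 (0.12), Bcl2l1 (0.161) and Fbxo21 (0.175), and for Klf9 Map1lc3b (0.184), Tspan4 (0.188) and Soat1 (0.196).

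Of 24 other genes known to be induced by glucocorticoids, 23 were tested. In P53ERTAM against EV tumors under combo, 15 were higher and 1 lower, against 22.1% and 22.0% of all genes. The median log2 difference was 1.05, against 0.062 for all genes. Under vehicle 10 were higher and 3 lower, against 17.9% and 19.8% of all genes, with a median of 0.42, against 0.0062. The mRNA-decay factor Zfp36, the decoy interleukin-1 receptor Il1r2 and Mt2 led under combo. Zfp36 had 55.6, 61.1 and 56.6 CPM in P53ERTAM combo tumors, against 19.8, 19.7 and 21.1 CPM in EV combo tumors, a log2 difference of 1.52 ± 0.111 (adjusted p = 1.48e-06). Il1r2 differed by 2.64 ± 0.238 (adjusted p = 6.14e-06) and Mt2 by 3.02 ± 0.275 (adjusted p = 6.81e-06), and neither gene's groups overlapped. With combo in EV tumors 9 fell and 2 rose, against 21.1% and 18.8% of all genes. Zfp36 at -0.70 (adjusted p = 0.000507), the transcription factor Cebpb at -0.77 (adjusted p = 0.000856) and Il1r2 at -1.34 (adjusted p = 0.000924) were the 3 of smallest p. With combo in P53ERTAM tumors Mt2 rose by 1.14 (adjusted p = 0.0228) and Fam107a by 2.66 (adjusted p = 0.0368), and Pdk4, a brake on pyruvate oxidation, fell by 1.35 (adjusted p = 0.0497). All 3 of these calls were lost when replicate 1 or 3 of P53ERTAM combo, or replicate 1 or 2 of P53ERTAM vehicle, was left out, with adjusted p up to 0.120 for Mt2, 0.139 for Fam107a and 0.171 for Pdk4, and those of Fam107a and Pdk4 also without some of the other libraries. The direction was not uniform, since under vehicle the phospholipase inhibitor Anxa1 was lower in P53ERTAM than EV tumors by a log2 difference of -1.57 (adjusted p = 0.000212) while the transcription factor Cebpd was higher by 1.28 (adjusted p = 0.00133). The difference between combo effects passed for 9 with P53ERTAM more positive and for 2 with EV more positive, against 18.8% and 17.2% of all genes. Several of these genes respond to inflammatory signals as well.

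**Figure D3:**
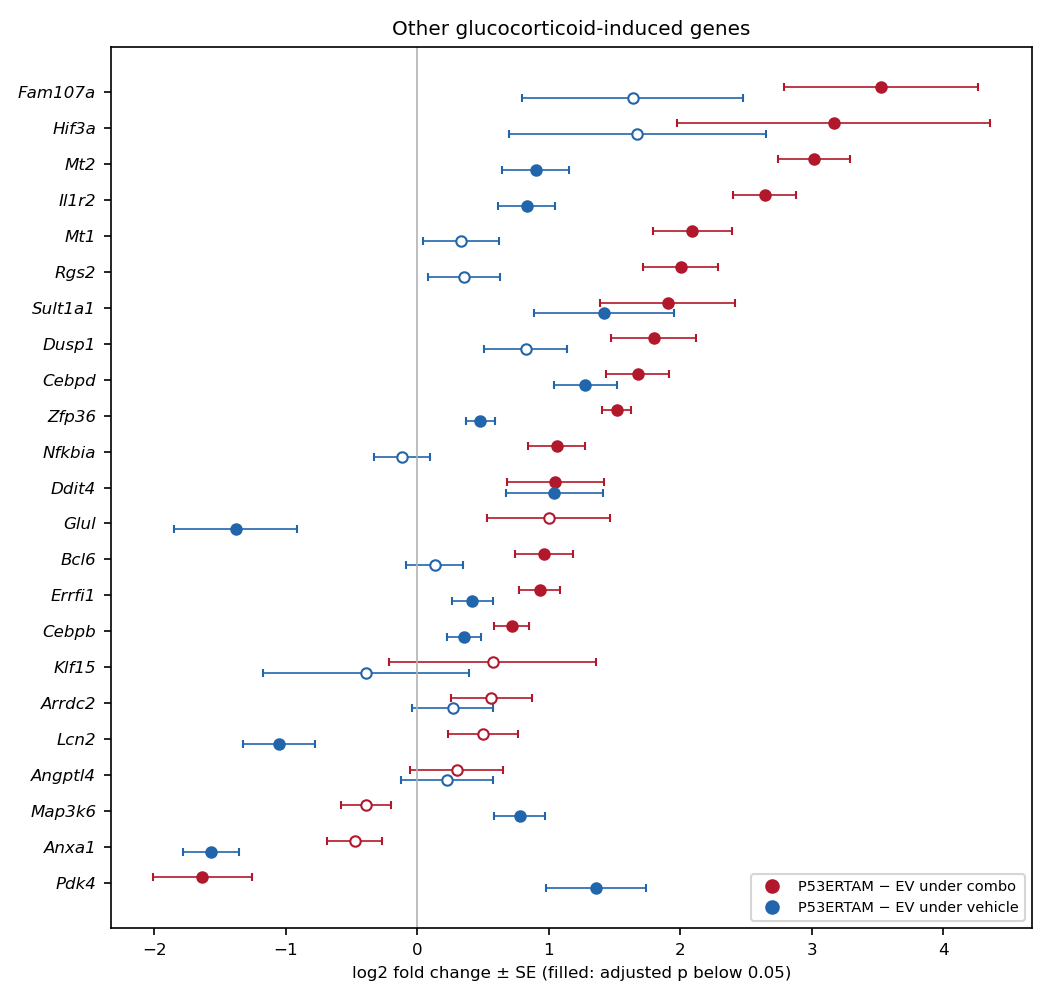
Log2 difference ± SE between P53ERTAM and EV tumors for the 23 other glucocorticoid-induced genes tested, under combo (red) and under vehicle (blue); filled points passed the adjusted threshold. Under combo 15 were higher and Pdk4 was lower, and under vehicle 10 were higher and 3 lower.

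The chaperones that hold steroid receptors ready for hormone moved with the combination in EV tumors. Of 15 tested, 12 fell and 0 rose there, where 21.1% of all genes fell and 18.8% rose. Their median was -0.605, against -0.067 for all genes. They were led by the p23 co-chaperone Ptges3 at -0.81 ± 0.107 (adjusted p = 0.000219), Bag1 at -0.77 ± 0.109 (adjusted p = 0.000289) and the HSP90 gene Hsp90ab1 at -0.62 ± 0.0976 (adjusted p = 0.000532). Ptges3 had 112.5, 119.1 and 123.8 CPM in EV combo tumors, against 212.5, 200.1 and 211.6 CPM in EV vehicle tumors, and the groups did not overlap. In P53ERTAM tumors 0 of 15 passed with combo by edgeR's quasi-likelihood test, where only 3.3% of all genes rose and 2.98% fell. At an unadjusted p under 0.05, 1 was higher and 2 were lower. By DESeq2's Wald test 1 rose and 0 fell there, and by limma-voom 1 rose and 2 fell. Under vehicle 10 were lower and 0 higher in P53ERTAM than EV tumors, against 19.8% and 17.9% of all genes. Among the 10 were the HSP90 activator Ahsa1 at -1.03 ± 0.117 (adjusted p = 7.22e-05), Stip1, which links HSP70 to HSP90, at -1.48 ± 0.175 (adjusted p = 8.81e-05) and Fkbp4, the relative of Fkbp5 that aids receptor transport, at -0.68 ± 0.0975 (adjusted p = 0.00025). Fkbp5 and Fkbp4 thus lay on opposite sides of EV in P53ERTAM vehicle tumors. Under combo 3 chaperones were higher and 3 lower between vectors, against 22.1% and 22.0% of all genes. Bag1 was higher by 0.81 (adjusted p = 8.83e-05) and the cyclophilin Ppid lower by a log2 difference of -0.48 (adjusted p = 0.00242). The combo effect was more positive in P53ERTAM than EV tumors for 12 of the 15 and less positive for 0. Of all genes, 18.8% and 17.2% passed in these directions.

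Of 9 other steroid-receptor and related genes, 7 were tested. The mineralocorticoid receptor gene Nr3c2, whose product binds glucocorticoids too, was higher in P53ERTAM than EV tumors by 1.09 ± 0.222 under combo (adjusted p = 0.00164) and by 0.84 ± 0.222 under vehicle (adjusted p = 0.0100), the second call being lost when only the groups compared were fitted (adjusted p = 0.0577). Its levels were low, at 8.62 to 9.01 CPM in P53ERTAM combo tumors, 6.54 to 7.05 CPM in P53ERTAM vehicle tumors, 3.68 to 4.41 CPM in EV combo tumors and 3.23 to 4.83 CPM in EV vehicle tumors, with no overlap between vectors. Pgrmc1, a heme-binding membrane protein linked to progesterone signaling, fell by 0.94 with combo in EV tumors (adjusted p = 0.000336), as did its paralog Pgrmc2 by 0.53 (adjusted p = 0.00104) and the orphan receptor Esrra by 0.92 (adjusted p = 0.00385). Pgrmc1 was also lower in P53ERTAM than EV tumors under vehicle, at -0.998 ± 0.136 (adjusted p = 0.000194). Esrrg had 0 counts in the 3 P53ERTAM vehicle tumors, against 1.38, 1.40 and 51.0 CPM in EV vehicle tumors. Counting 3 reads over the P53ERTAM vehicle group as the floor, its mean was at least 298-fold lower there, or at least 23.1-fold without EV vehicle replicate 3.

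Nuclear receptor coregulators, which pass the signal of a bound receptor to the transcription machinery, changed in both directions. Of 14 tested, 2 were higher and 6 lower in P53ERTAM than EV tumors under each treatment, where 22.1% and 22.0% of all genes passed under combo and 17.9% and 19.8% under vehicle. Over the alternatives 0 to 2 were higher and 3 to 8 lower under combo. The coactivator Ncoa1 was lower by a log2 difference of -0.80 ± 0.114 under vehicle (adjusted p = 0.000239). With combo it was the 1 gene of the 14 that rose in P53ERTAM tumors, by 0.57 ± 0.114 (adjusted p = 0.0169), where 3.3% of all genes rose. Leaving out replicate 1 or 3 of P53ERTAM combo, or 1 or 2 of P53ERTAM vehicle, ended the Ncoa1 call, with adjusted p up to 0.0902. Of 18 genes of steroid synthesis and conversion, 8 were tested. Hsd17b11, a dehydrogenase of steroids and lipids, was higher in P53ERTAM than EV tumors by 1.55 ± 0.202 under combo (adjusted p = 7.61e-05), and H6pd, which supplies the cofactor for making active glucocorticoid in the endoplasmic reticulum, by 1.10 ± 0.169 (adjusted p = 0.000237). The steroid 5-alpha-reductase gene Srd5a1 was lower by a log2 difference of -0.95 ± 0.244 (adjusted p = 0.00702).

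Genes that respond to estrogen or progesterone in the mammary gland went in both directions. Of 17 tested, 5 were higher and 6 lower in P53ERTAM than EV tumors under vehicle, and 5 were higher and 5 lower under combo. Of all genes, 17.9% were higher and 19.8% lower under vehicle, and 22.1% and 22.0% under combo. The median log2 difference of the list was -0.781 under vehicle, against 0.0062 for all genes. Under combo it was -0.365, against 0.062. The transcription factor Myb was lower at -2.16 ± 0.178 under combo (adjusted p = 3.24e-06) and -1.82 ± 0.176 under vehicle (adjusted p = 2.86e-05). The ligand Wnt4, a mediator of progesterone in the mammary gland, was lower at -2.35 ± 0.293 under combo (adjusted p = 5.38e-05), and the prolactin receptor Prlr at -1.55 ± 0.236 (adjusted p = 0.000263). Greb1, an estrogen receptor cofactor and target, had 0 counts in the 3 EV vehicle tumors, against 0.496, 0.587 and 0.350 CPM in P53ERTAM vehicle tumors, at least 10.2-fold higher with 3 reads over the EV vehicle group as the floor. Under combo Greb1 was not called between vectors. Its means there were 0.374 CPM in P53ERTAM and 0.311 CPM in EV tumors, with overlapping groups.

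Per1 was set beside 18 other genes of the circadian clock, since it belongs to that circuit as well. With combo in EV tumors 3 of them rose, Arntl and Cry2 among them, and 5 fell (Nr1d2, Hlf, Nr1d1, Dbp and Tef), counts near the 18.8% of all genes that rose and 21.1% that fell. The Dbp call was lost by limma-voom and without a low-count filter (adjusted p up to 0.0576), and the Tef call in 5 of 20 alternatives, among them leaving out EV vehicle replicate 3 or EV combo replicate 2 (adjusted p up to 0.0698). Nr1d2, a repressor of Arntl, fell by 1.44 ± 0.201 (adjusted p = 0.000303), and had 78.2, 51.1 and 72.8 CPM in EV combo tumors, against 123, 193.2 and 231 CPM in EV vehicle tumors. Hlf, an output transcription factor, fell by 0.86 ± 0.163 (adjusted p = 0.00137), and Arntl, the activator BMAL1, rose by 0.95 ± 0.204 (adjusted p = 0.00288). The groups of all 3 genes did not overlap. In P53ERTAM tumors 0 of 18 passed with combo by edgeR's quasi-likelihood test, where only 3.3% of all genes rose and 2.98% fell. At an unadjusted p under 0.05, 2 were higher and 2 lower. By DESeq2's Wald test 0 rose and 1 fell, and by limma-voom 3 rose and 2 fell. Between vectors under combo, 5 were higher and 5 lower, against 22.1% and 22.0% of all genes. Nr1d2 was higher by 1.33 ± 0.200 (adjusted p = 0.000227), Arntl lower at -1.22 ± 0.205 (adjusted p = 0.000456) and Clock, the partner of Arntl, lower at -0.69 ± 0.105 (adjusted p = 0.000226). Under vehicle 2 were higher and 2 lower, against 17.9% and 19.8% of all genes. Rora, an activator of Arntl, was higher by 1.33 ± 0.285 (adjusted p = 0.00306) and Cry2 by 0.78 ± 0.176 (adjusted p = 0.00422). Hlf was lower at -0.49 ± 0.161 (adjusted p = 0.0279) and Nr1d1 at -1.29 ± 0.427 (adjusted p = 0.0328), and each of these lower calls was lost in 6 of 20 alternatives, among them leaving out EV vehicle replicate 3 or P53ERTAM vehicle replicate 1 or 2. The time of day at which tumors were taken is not stated in the labels. EV vehicle replicate 3, which had the most Tsc22d3 and Klf9 of its group, also had the most Dbp, an output gene of the clock, at 57.0 CPM against 5.77 and 10.7 CPM in replicates 1 and 2.

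**Figure D4:**
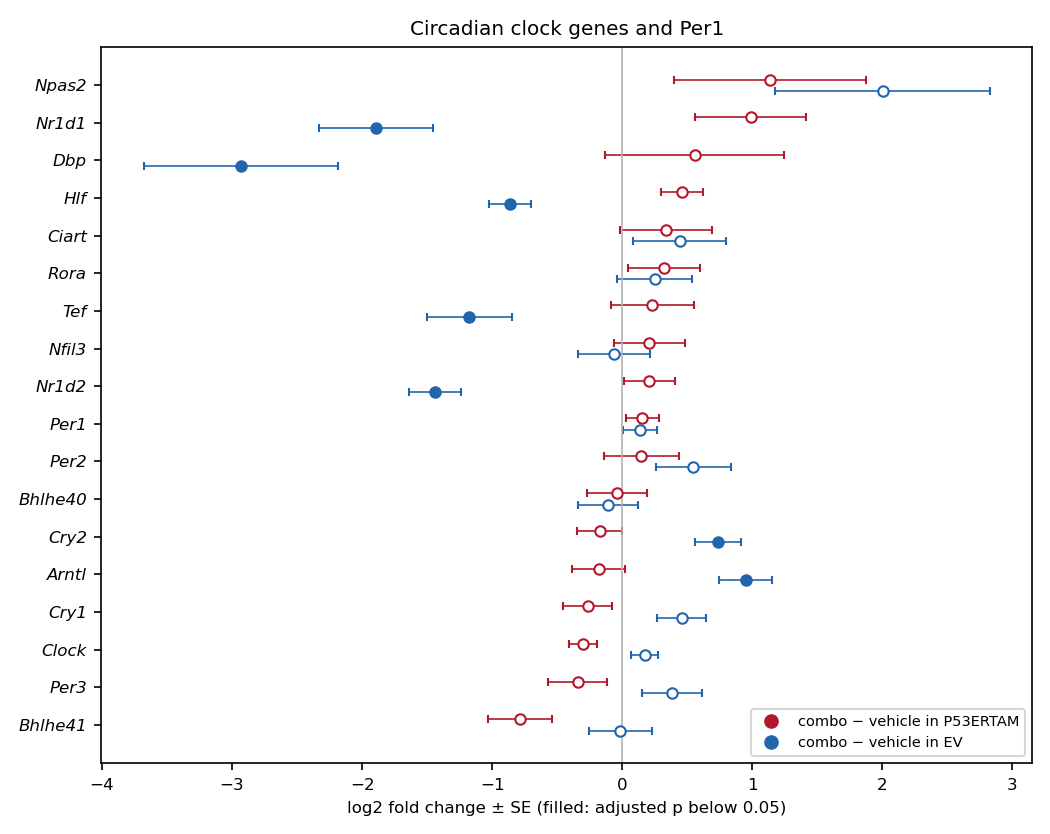
Log2 fold change ± SE with combo against vehicle for Per1 and 17 of the 18 other clock genes, in P53ERTAM tumors (red) and EV tumors (blue); filled points passed the adjusted threshold. In EV tumors Arntl and Cry2 rose and 5 genes fell, among them Nr1d2 by 1.44, while the Per1 points of both vectors lie close together, at 0.15 and 0.14.

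Relatives of the 9 genes were counted to see how far their families moved. Of 23 paralogs tested, 13 were higher and 2 lower in P53ERTAM than EV tumors under combo. Of all genes 22.1% were higher and 22.0% lower there, and of protein-coding genes 26.6% and 19.5%. The Krüppel-like factors Klf6, at 1.498 ± 0.112 (adjusted p = 1.54e-06), and Klf2, at 2.59 ± 0.265 (adjusted p = 1.38e-05), a gene high in endothelium, were higher alongside Klf9. Endothelial markers summed to 229 to 334 CPM in P53ERTAM combo tumors, against 144 to 222 CPM in EV combo tumors, and their part in the Klf2 difference was not tested. Klf6 also rose with combo in P53ERTAM tumors by 0.89 ± 0.110 (adjusted p = 0.00282), as did Sgk3, a kinase related to Sgk1, by 0.72 ± 0.176 (adjusted p = 0.0326), a call lost when any replicate of P53ERTAM combo, or replicate 1 or 2 of P53ERTAM vehicle, was left out (adjusted p up to 0.124). In the FK506-binding family, Fkbp10, a collagen chaperone, was higher in P53ERTAM than EV tumors under vehicle by 1.76 ± 0.175 (adjusted p = 3.42e-05) and Fkbp14, another chaperone of the endoplasmic reticulum, by 1.22 ± 0.171 (adjusted p = 0.000222). With combo in EV tumors Fkbp10 rose by 1.05 (adjusted p = 0.000709) while Fkbp4 fell by 0.60 (adjusted p = 0.000617) and Fkbp8 by 0.56 (adjusted p = 0.0013).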

How the data were processed

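Total RNA was sequenced from 12 bulk tumors in 4 groups of 3. The deposited tables hold raw read counts per gene; the authors used FastQC, fastp, STAR, featureCounts and build GRCm38.p5, per the submitters' processing notes. The kit is stranded; the strand setting, annotation release and counting of read pairs are not given in the sources used here, so antisense reads may be included. Of 52636 gene identifiers, 52403 matched a symbol.

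Counts of all genes passing edgeR's filterByExpr (17970 genes) were scaled by TMM and fitted with 4 group means, and tested with edgeR's quasi-likelihood test (edgeR 4.0.16, R 4.3.3), Benjamini-Hochberg adjusted, threshold 0.05. CPM used TMM-scaled library sizes, and TPM used summed exon lengths. The steps were tested on simulated data. Alternatives were DESeq2 1.42.0, limma 3.58.1 voom weights, protein-coding genes only, other filters, a replicate block, only the 2 groups compared, and leaving out each library. Nothing says that equal replicate numbers share an animal or day, and 2 of 18 same-number pairs had deviations correlated at over 0.1, so samples were not paired.

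The 9 genes and the lists were chosen with earlier results of these data known. Named genes were the 9, up to 3 called genes of smallest p per list and comparison, clock genes called in EV tumors, and up to 3 nearest profiles per gene; a few genes that this rule names are not reported here. Dbp in EV vehicle replicates was chosen after its values were seen. Depth was 13484873 to 24424964 reads per library, and floors of 3 counts cover counting error only.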

Additional observations from a re-analysis of the deposited data

Results flagged for a closer look

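The combo effect differed between vectors, by a test of the difference itself, for 4 of the 8 genes tested. In that direction 18.8% of all genes passed, and 23.0% of protein-coding genes in the same fit. The log2 combo effect in P53ERTAM tumors minus that in EV tumors was 3.23 for Tsc22d3, 1.19 for Klf9, 0.603 for Sgk1 and 0.475 for Nr3c1. Among protein-coding genes alone it was 3.05 for Tsc22d3 (adjusted p = 0.00253 by edgeR's quasi-likelihood test) and 1.01 for Klf9 (adjusted p = 0.0187), and missed the threshold for Sgk1 and Nr3c1. For Tsc22d3, Klf9 and Nr3c1 the change within EV tumors passed and that within P53ERTAM tumors did not, and for Sgk1 the reverse held. All 4 values use the EV combo libraries, whose share of protein-coding counts was the lowest, and the part of that difference beyond the protein-coding repeat was not tested.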

How the results depend on the processing

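Of the 9 genes, the counts called stayed within 1.5 times of those reported under the alternatives run, with these exceptions. With combo in P53ERTAM tumors 2 genes were called by limma-voom with quality weights and 2 when only the groups compared were fitted, and 0 to 2 when 1 library was left out. For P53ERTAM against EV under vehicle the count was 3 to 5 when 1 library was left out. For the difference between combo effects it was 2 among protein-coding genes only. With the replicate block the counts were 4 for combo in EV tumors, 1 for combo in P53ERTAM tumors, 6 and 3 between vectors under combo and vehicle, and 4 for the difference. The block changed none of these counts, and the numbers did not pair the samples (r of -0.149 to 0.211).

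Over 45 results of the 9 genes and 881 alternative values, 827 were counted as unchanged. For tested results this meant the same direction and side of the threshold, with a missing adjusted p taken as not passing. For untested Fkbp5 results it meant the same direction and a shift smaller than the spread between replicates. Another 35 values changed sign, all of them for results that had not passed. Among protein-coding genes only, the log2 values that changed sign were 0.0417 for Sgk1 with combo in EV, -0.0196 for Nr3c1 and -0.0153 for Fkbp5 with combo in P53ERTAM, 0.00732 for Nr3c1 between vectors under vehicle, and -0.0682 for Esr1 and -0.164 for Per1 in the difference of combo effects. By limma-voom they were 0.503 and 0.816 for Pgr, with combo in EV and between vectors under vehicle, and -0.0444 for Fkbp5 with combo in P53ERTAM. The Per1 difference of combo effects was -0.0347 with DESeq2 size factors, -0.0287 by DESeq2's Wald test and -0.00421 with a filter of 1 CPM in 3 libraries. The cause was not tested. Leaving out 1 library gave, with combo in EV tumors, -0.056 to 0.484 for Esr1, -1.23 to 1.16 for Pgr, -0.184 to 0.0247 for Sgk1, -0.00671 to 0.259 for Per1 and -0.322 to 0.845 for Zbtb16. With combo in P53ERTAM tumors it gave -0.00303 to 0.088 for Nr3c1 and -0.0482 to 0.108 for Fkbp5, and between vectors under vehicle -1.47 to 0.751 for Pgr and -0.119 to 0.00871 for Nr3c1. For the difference of combo effects it gave -0.181 to 0.358 for Esr1, -0.103 to 0.163 for Per1 and -0.351 to 0.809 for Zbtb16. The untested Fkbp5 difference of combo effects was 0.714 among protein-coding genes only.

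With combo in P53ERTAM tumors, 593 of all genes rose and 536 fell, 1861 and 1887 by limma-voom, and 63 and 14 without P53ERTAM combo replicate 1. Several list counts also moved over the alternatives. The other glucocorticoid-induced genes that rose with combo in P53ERTAM tumors numbered 2, and 0 to 10 over the alternatives, and those that fell with combo in EV tumors 9, and 5 to 9. Between vectors under vehicle 10 of them were higher and 3 lower, and 6 to 11 and 1 to 3 over the alternatives. The clock genes that rose and those that fell with combo in EV tumors numbered 3 to 5 each. Between vectors the chaperones that were lower under vehicle numbered 6 to 11, and under combo 2 to 6 were higher and 1 to 4 lower. The estrogen- or progesterone-responsive genes that were higher numbered 3 to 5 under vehicle and 2 to 5 under combo. Of the paralogs 0 to 2 were lower under combo. With 3 tumors a group, small changes could go undetected, and the few reads of Pgr and Zbtb16 limit both.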
